A study of Mus musculus with 4 samples.

Results

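Effector regulatory T cells differ from resting ones in part through a small set of transcription regulators, and the mRNAs of 8 of them are described here: Prdm1, Batf, Maf, Gata3, Tbx21, Rora, Ahr and Id2. They were chosen by gene symbol, and 8 of 8 were found among the 282 genes of the deposited table. All of these genes had been selected by the submitters for differing between the groups. A change of each regulator, in either direction, was thus a condition for being listed. The members were also chosen with earlier results of these data known.

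The 4 RNA-seq libraries came from CD4+ regulatory T cells (Tregs), the Foxp3-expressing T cells that restrain immune responses, taken from male mice aged 6 to 8 weeks, out of their lymph nodes and spleens. All the mice had the genotype Foxp3RFP-Cre.RosaYFPMll1fl/fl, in which cells that express Foxp3 carry a red fluorescent protein and Cre recombinase, the Rosa locus carries a YFP reporter, and both Mll1 alleles are floxed. The RFP+YFP+ Tregs, 2 libraries, carried the label MLL1KO, and the RFP+YFP- Tregs, 2 libraries, carried the label WT. The groups are called YFP-positive and YFP-negative here. The WT-labelled cells thus also carried Cre and the floxed alleles and were set apart only by the absence of YFP. Each group had 1 library under each of the mouse numbers 1 and 2, and whether a number is a single animal or a pool is not stated. Sorted purity was stated as above 95%. The deleted gene (Kmt2a, the mouse symbol of Mll1) and Foxp3 were not analysed here, so neither the deletion nor the Treg label was checked with its defining gene. Of 12 Treg markers, only Gpr83 was listed.

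MLL1 is a histone methyltransferase that places methyl groups on lysine 4 of histone H3 at promoters and regulatory DNA, and a zinc finger domain of it binds DNA with unmethylated CG dinucleotides. Resting Tregs circulate through lymphoid organs, whereas effector Tregs take on regulators otherwise known from helper T cells and enter tissues. Blimp-1 (Prdm1), BATF and c-Maf are linked with effector function and interleukin-10, T-bet (Tbx21), GATA3 and ROR-alpha (Rora) with type 1, type 2 and type 3 or skin settings, and the aryl hydrocarbon receptor (Ahr) with the gut. ID2 has a helix-loop-helix domain but no DNA-binding basic region, and acts by holding E proteins away from DNA.

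Promoter sequence is shown because MLL1 binds CG-containing DNA and because the 8 mRNAs were lower together. RefSeq windows (GRCm38.p6, the mm10 assembly) from 250 bases before to 50 bases after the start were to hand for 6 of the 8 genes. Maf and Ahr had none. Each of the 6 genes had 1 window, although Rora, for example, has 6 annotated transcripts over 734461 bases. The Prdm1, Gata3 and Id2 windows lie wholly within the gene, downstream of its annotated 5′ end (44528501, 9890034 and 25097140, minus strand). The Gata3 window spans 9878551 to 9878850. Their CG counts and motifs thus belong to starts inside the annotated gene. Which start these cells used was not examined. The windows below, 5′ to 3′ on the gene's strand, are those of the regulators with the largest estimated falls, with Batf as the window with the fewest CG dinucleotides. Capitals mark each CG.
Rora, chr9:68653536-68653835, plus strand: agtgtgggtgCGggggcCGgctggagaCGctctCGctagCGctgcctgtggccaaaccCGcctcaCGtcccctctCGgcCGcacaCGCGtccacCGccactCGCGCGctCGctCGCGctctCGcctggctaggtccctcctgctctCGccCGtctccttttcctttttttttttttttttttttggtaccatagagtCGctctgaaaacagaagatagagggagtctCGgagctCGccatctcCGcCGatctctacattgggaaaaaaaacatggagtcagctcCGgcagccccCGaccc
Prdm1, chr10:44458699-44458998, minus strand: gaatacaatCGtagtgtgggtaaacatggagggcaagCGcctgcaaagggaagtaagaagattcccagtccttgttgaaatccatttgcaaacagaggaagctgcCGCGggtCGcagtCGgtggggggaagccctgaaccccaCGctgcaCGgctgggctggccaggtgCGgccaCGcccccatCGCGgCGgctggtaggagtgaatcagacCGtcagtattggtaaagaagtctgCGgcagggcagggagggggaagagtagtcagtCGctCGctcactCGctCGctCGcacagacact
Id2, chr12:25096043-25096342, minus strand: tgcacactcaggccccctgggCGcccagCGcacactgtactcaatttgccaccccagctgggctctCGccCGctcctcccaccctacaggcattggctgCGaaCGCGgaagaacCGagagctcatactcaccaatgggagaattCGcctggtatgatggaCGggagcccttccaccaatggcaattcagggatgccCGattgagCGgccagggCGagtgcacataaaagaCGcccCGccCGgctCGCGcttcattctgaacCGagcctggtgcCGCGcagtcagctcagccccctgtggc
Batf, chr12:85686470-85686769, plus strand: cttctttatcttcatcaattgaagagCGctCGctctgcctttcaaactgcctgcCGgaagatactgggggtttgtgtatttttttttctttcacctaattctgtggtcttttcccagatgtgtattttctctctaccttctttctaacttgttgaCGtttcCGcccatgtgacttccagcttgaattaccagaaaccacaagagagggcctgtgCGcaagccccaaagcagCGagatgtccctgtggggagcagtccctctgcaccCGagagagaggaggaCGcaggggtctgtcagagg
The Rora window held 28 CG dinucleotides, the Gata3 window 22, the Id2 and Tbx21 windows 21 each, the Prdm1 window 20 and the Batf window 9. Over all 32851 RefSeq windows of this length the median was 7, and the upper quartile was 20. The median was 21 over the 6 regulators, 11 over the 134 other lower genes of the table that had a window, and 11.25 over the 52 higher genes, where a gene with several windows counted by their median. These are descriptions of the windows, and binding of MLL1 was not measured in these files.

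The windows were also searched on both strands for short motifs of the regulators' own families. The AP-1 motif TGANTCA, where BATF binds with JUN proteins, was in 1 of 6 windows, that of Prdm1 (TGAATCA, from base -48, where -1 is the base before the start), and in 7.81% of all windows. The GATA motif AGATAA was in the Batf window alone, from base -245 on the opposite strand, and in 11.2% of all windows. The Ahr core GCGTG, which itself holds a CG, was in the Prdm1 and Rora windows and in 32.4% of all windows. The E-box CANNTG, the site of the E proteins that ID2 binds, was in 5 of 6 windows (all but Rora) and in 72.3% of all windows. None of the 6 windows held TCACACC (T-box), AGGTCA (ROR), TGCTGAC (Maf) or GAAAGT (Prdm1), which were in 3.98%, 16.3%, 4.67% and 14.3% of all windows. None of the matches in these windows overlapped another of these motifs. A match is a string of letters in this window and says nothing about whether a factor was bound.

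Setting the YFP-positive against the YFP-negative libraries asks how the activation and specialization of Tregs differ when MLL1 is labelled as missing. Each of the 8 regulators was lower in YFP-positive Tregs, by 2.15-fold for Gata3 to 4.03-fold for Rora in the group means. Values are normalized counts, which the authors made by dividing gene read counts by each library's size factor. The groups did not overlap for 8 of 8 regulators, where 69.5% of all 282 listed genes were lower without overlap. By limma on log2(normalized count + 1) with Benjamini-Hochberg adjustment, 8 of 8 passed an adjusted p of 0.05. So did all 196 lower genes, again 69.5% of the listed genes. Of the regulators, 8 of 8 also passed with a pseudocount of 0.1 or no variance trend (69.5% of listed genes lower and past), with a filter on low values (69.1%) and with the mouse as a block (68.4%). Adjusted over 14239 tests, 6 of 8 passed beside 59.9%, which is 169 of the 196 lower genes. Without YFP-positive mouse 1 or 2, 8 and 7 of the 8 passed beside 64.5% and 66.3%, and without YFP-negative mouse 1 or 2, 7 and 8 passed beside 62.4% each. These percentages are of all listed genes, 86 of which were higher and could not count as lower. Since the table was selected on these same libraries, none of these counts is a result about the regulators. The median log2 fold change was -1.60 over the 8 regulators, -1.90 over the 196 lower genes of the table and -1.51 over all 282. In bulk RNA, fewer cells that express a gene and less RNA in each cell cannot be told apart.

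**Figure D1:**
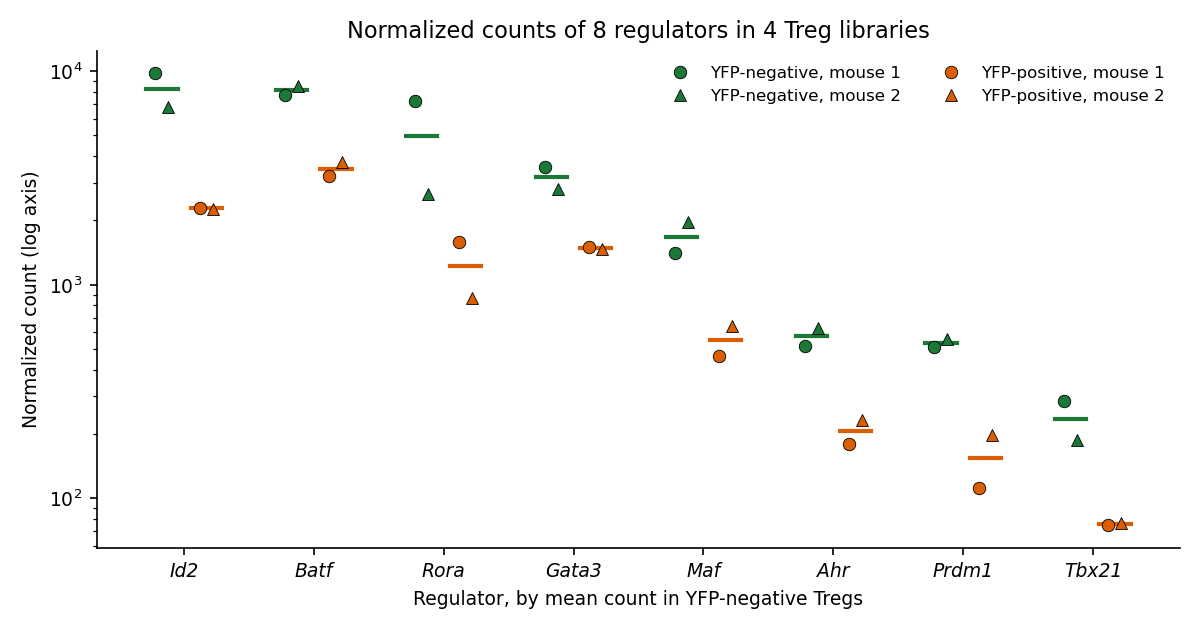
Normalized counts (log axis) of the 8 regulators in the 4 libraries, with circles for mouse 1, triangles for mouse 2 and a bar for each group's mean, ordered by mean count in YFP-negative Tregs. Both YFP-positive values lie below both YFP-negative values for every regulator, and the YFP-negative values of Rora, 7240 and 2650, are the farthest apart.

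Among the regulators of effector function, Prdm1 had the largest estimated fall over both mice, although in mouse 2 the log2 difference was larger for Maf (-1.61) than for Prdm1 (-1.48). Prdm1 (ENSMUSG00000038151, mm10 chromosome 10, 44437177 to 44528501, minus strand), which encodes the zinc finger repressor Blimp-1, was counted at 111 and 198 in YFP-positive mice 1 and 2, and at 512 and 556 in YFP-negative mice 1 and 2. Its YFP-positive libraries differed from each other more than its YFP-negative ones, without reaching them. The group means were 155 ± 61.5 and 534 ± 31.3 (SD, n = 2 each), and the log2 difference by limma was -1.84 ± 0.37 (SE) with adjusted p = 3.35e-05. Prdm1 kept 21.7% of the YFP-negative count within mouse 1 and 35.7% within mouse 2.

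Maf (ENSMUSG00000055435, chromosome 8, 115682942 to 115707794, minus strand) encodes c-Maf, a basic leucine zipper factor that promotes interleukin-10. Its counts were 462 and 643 in the YFP-positive and 1401 and 1963 in the YFP-negative libraries of mice 1 and 2. Mouse 2 was the higher one in both populations, and the fall was nearly the same in each mouse, with 33.0% of the YFP-negative count left in mouse 1 and 32.7% in mouse 2. By limma, its log2 value differed by -1.60 ± 0.34 (SE), with adjusted p = 4.70e-05. An antisense transcript on the opposite strand, Gm15655, shares 440 of the 8241 exon bases of Maf, and whether the counting used strand is not given in the sources used here.

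Batf (ENSMUSG00000034266, chromosome 12, 85686669 to 85709087, plus strand), whose protein pairs with JUN proteins and acts with IRF4, had the highest level per kilobase of the 8. It was counted at 3218 and 3774 in the YFP-positive and at 7716 and 8523 in the YFP-negative libraries. The libraries of a group lay close together, and the fall was small beside that of Prdm1, to 43.1% of the YFP-negative mean. The limma estimate was -1.22 ± 0.40 (SE) on the log2 scale, with adjusted p = 0.00351. The authors' deposited adjusted p was 0.00229. With the limma p adjusted over the 14239 tests that the authors' p-values imply, Batf was at 0.177 and did not pass, while its other alternatives gave adjusted p of 0.00239 to 0.0387.

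Of the regulators named for helper T cell lineages, Rora had the largest estimated fall and Gata3 the smallest. The place of Rora rested on single libraries, since Tbx21 had the larger fall without YFP-negative mouse 1 (-1.30 against -1.17) and without YFP-positive mouse 2 (-1.61 against -1.46). Rora (ENSMUSG00000032238, chromosome 9, 68653786 to 69388246, plus strand), which encodes a nuclear receptor needed by group 2 innate lymphoid cells and expressed by skin Tregs, was counted at 1587 and 869 in YFP-positive mice 1 and 2. In the YFP-negative libraries it was counted at 7240 and 2650. Mouse 1 was the higher one in both populations, and the lowest YFP-negative value was 1.67 times the highest YFP-positive value. The limma estimate was -1.90 ± 0.39 (SE) on the log2 scale, with adjusted p = 3.53e-05. With YFP-positive mouse 2 left out, it was -1.46 with a limma adjusted p of 0.0742, which did not pass, and Rora's other alternatives gave 1.39e-06 to 0.0412. The opposite-strand transcript Gm15511 shares 82 of the 13071 exon bases of Rora.

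Tbx21 (ENSMUSG00000001444, chromosome 11, 97098071 to 97115331, minus strand) encodes T-bet, the regulator of type 1 responses. It was counted at 74.9 and 76.3 in the YFP-positive and at 285 and 187 in the YFP-negative libraries. It had the fewest reads of the 8, with 72 inferred reads in each YFP-positive library, and the YFP-negative libraries differed by 1.52-fold. By limma the log2 difference was -1.60 ± 0.43 (SE), with adjusted p = 0.000637. With YFP-negative mouse 1 left out, it was -1.30 with a limma adjusted p of 0.0809, which did not pass, and Tbx21's other alternatives gave 0.000242 to 0.0322.

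Gata3 (ENSMUSG00000015619, chromosome 2, 9857078 to 9890034, minus strand) encodes the zinc finger regulator of type 2 responses. It was counted at 1502 and 1465 in the YFP-positive and at 3543 and 2823 in the YFP-negative libraries. The YFP-positive libraries were nearly equal, and 46.6% of the YFP-negative mean was left, the highest share of the 8. The limma estimate was -1.09 ± 0.35 (SE) on the log2 scale, with adjusted p = 0.00306. The authors' deposited adjusted p was 0.0136. Over 14239 tests the limma adjusted p was 0.154, which did not pass, and Gata3's other alternatives gave 0.00296 to 0.0428. Gm13256 on the opposite strand and 9230102O04Rik on the same strand share 155 and 77 of its 3978 exon bases.

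Ahr (ENSMUSG00000019256, chromosome 12, 35497974 to 35535038, minus strand) encodes a ligand-activated receptor of dietary, microbial and environmental compounds. It was counted at 180 and 232 in the YFP-positive and at 518 and 629 in the YFP-negative libraries, with mouse 2 higher in both populations. It fell by 1.48 ± 0.36 (SE) on the limma log2 scale, adjusted p = 0.000224, with 34.8% left in mouse 1 and 36.9% in mouse 2. The opposite-strand transcript Gm48236 shares 127 of its 6163 exon bases.

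Id2 (ENSMUSG00000020644, chromosome 12, 25093799 to 25097140, minus strand) encodes the inhibitor of E proteins, and its group means differed by 5986 normalized counts. It was counted at 2281 and 2273 in the YFP-positive libraries, which were within counting error of each other, and at 9767 and 6759 in the YFP-negative libraries. By limma its log2 value differed by -1.83 ± 0.39 (SE), with adjusted p = 4.74e-05, and 27.6% of the YFP-negative mean was left.

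**Figure D2:**
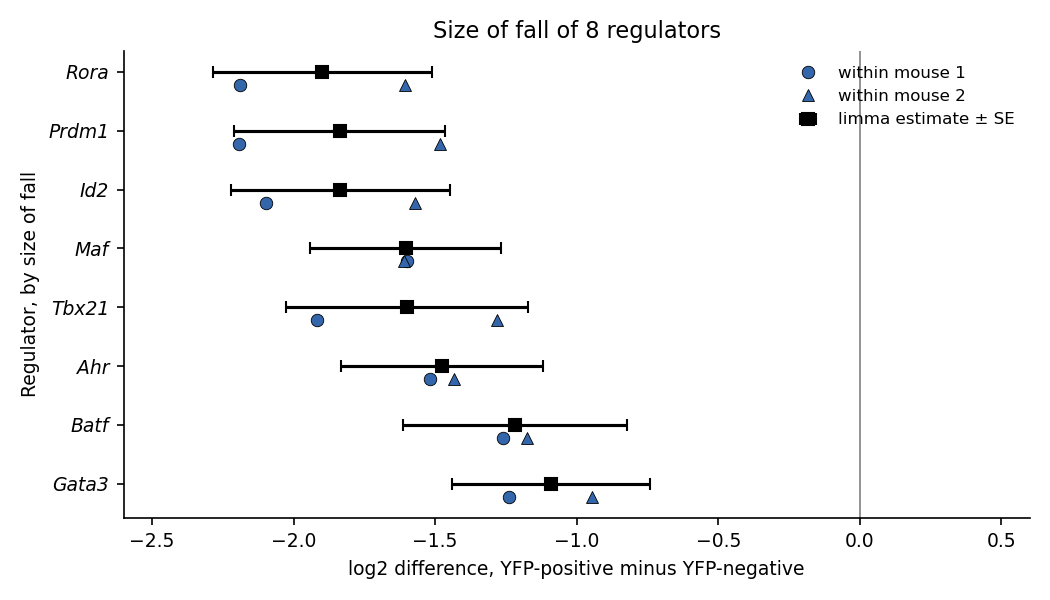
Log2 difference between YFP-positive and YFP-negative Tregs for each regulator, with squares for the limma estimate and its SE and blue symbols for the difference within mouse 1 and within mouse 2. Every within-mouse value lies below 0, from -2.19 to -0.95, and the SE bars of neighbouring regulators overlap.

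In the order of fall, the limma log2 fold changes ran from -1.90 for Rora through Prdm1, Id2, Maf, Tbx21, Ahr and Batf to -1.09 for Gata3. Neighbours in this order differed by 0.0023 to 0.26 on the log2 scale. That is below the limma SE of a single regulator, which ranged from 0.34 to 0.43. Limma draws this SE toward a trend shared by the listed genes, so it is not each regulator's own spread. For each of the 7 neighbouring pairs, the two-sided exact permutation test of the log2 ratio of the 2 regulators over the 4 libraries gave p from 0.333 to 1, all 1 after Benjamini-Hochberg adjustment. The smallest p that 2 libraries against 2 allow is 0.333, so the test could not call a difference. Of the 28 pairs of regulators, 21 were in the same order of fall in both mice. Gata3 had the smallest and Batf the next smallest fall in each mouse. Rora was first in neither mouse, since Prdm1 led by a narrow margin in mouse 1, with both at -2.19, and Maf led in mouse 2, with both at -1.61. The distance between Rora and Gata3, the extremes of the order, was 0.95 in mouse 1 and 0.66 in mouse 2. It ranged from 0.25 without YFP-negative mouse 1 to 1.37 without YFP-negative mouse 2, which are values with no test, and was 0.39 without YFP-positive mouse 2.

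The fall was larger in mouse 1 than in mouse 2 for 7 of 8 regulators, Maf being the exception. Genes outside the 8 also fell more in mouse 1, such as Pdcd1 (-1.80 against -1.31) and Klrg1 (-2.89 against -1.93). Runx2 went the other way (-1.26 against -1.32). The share over all listed genes was not counted, so the 7 of 8 is not a result about the regulators. Among the regulators the difference was widest for Prdm1, at -2.19 against -1.48 on the log2 scale, and for Tbx21, at -1.92 against -1.28. With 1 library per population and mouse, the difference between the mice was not tested.

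Levels were compared between regulators as normalized count per kilobase of the deposited gene length, which equals the summed exon length in GENCODE M21 for 8 of 8. In YFP-negative Tregs the mean level per kilobase was 5775 ± 406 for Batf and 3389 ± 872 for Id2 (SD, n = 2 each). It was 800 ± 128 for Gata3, 378 ± 248 for Rora and 204 ± 48.2 for Maf. Prdm1, Tbx21 and Ahr stood together at 95.7 ± 5.62, 94.9 ± 27.9 and 93.0 ± 12.8. The library values overlapped between Rora and Maf, between Prdm1 and Tbx21 and between Tbx21 and Ahr, so these neighbours did not differ beyond their spread, while each of the other 4 neighbouring pairs was apart.

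In YFP-positive Tregs the mean level per kilobase was 2486 ± 280 for Batf, 934 ± 2.09 for Id2, 373 ± 6.45 for Gata3, 94.0 ± 38.8 for Rora and 67.0 ± 15.5 for Maf. By these means the first 5 places were the same in both groups, but the library values of Rora and Maf overlapped here too, and in mouse 2 Maf lay above Rora in both groups. Ahr, Tbx21 and Prdm1 followed at 33.4 ± 6.00, 30.4 ± 0.42 and 27.7 ± 11.0, again with overlapping values. The spacing changed where neighbours fell by unequal amounts. The level of Batf was 1.70 times that of Id2 in YFP-negative and 2.66 times in YFP-positive Tregs, with mouse 1 at 1.37 and 2.45 and mouse 2 at 2.19 and 2.88. The level of Gata3 was 2.11 times that of Rora in YFP-negative and 3.97 times in YFP-positive Tregs. This ratio differed between the mice, at 1.61 in mouse 1 and 3.50 in mouse 2 among YFP-negative and at 3.11 and 5.54 among YFP-positive libraries. With the longest transcript as the length, the order in YFP-negative Tregs was the same down to Maf, and Ahr came before Prdm1 and Tbx21.

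**Figure D3:**
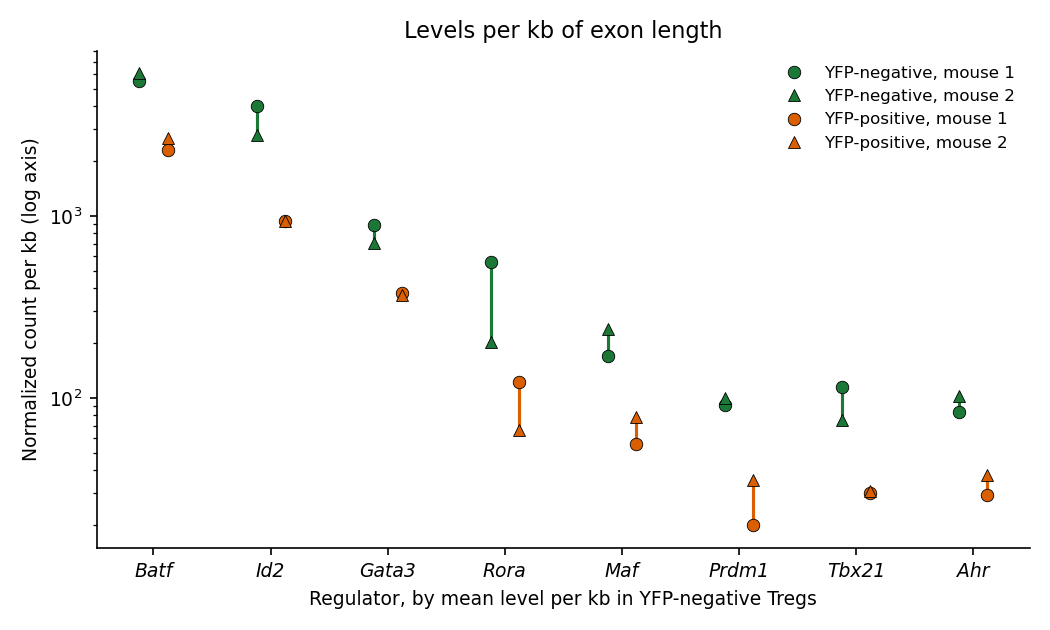
Normalized count per kilobase (log axis) of each regulator in YFP-negative (green) and YFP-positive (orange) libraries, with a line joining the 2 mice of a group. Batf, Id2 and Gata3 hold the top 3 places in every library, and Prdm1, Tbx21 and Ahr lie together at the low end of both groups.

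As a description, the log2 level per kilobase in YFP-negative Tregs and the log2 fold change had Pearson's r = 0.304 and Spearman's rho = 0.143 over 8 genes, which share the same 4 libraries. The median level of the 8 in YFP-negative Tregs was 291 normalized counts per kilobase, against 111 over all 196 lower genes. Of the 8, Prdm1, Tbx21 and Ahr lay below that median of the lower genes. By the fold change in the authors' deposited table they ranked from 88 (Rora) to 190 (Gata3) among the 196 lower genes, counted from the largest fall.

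**Figure D4:**
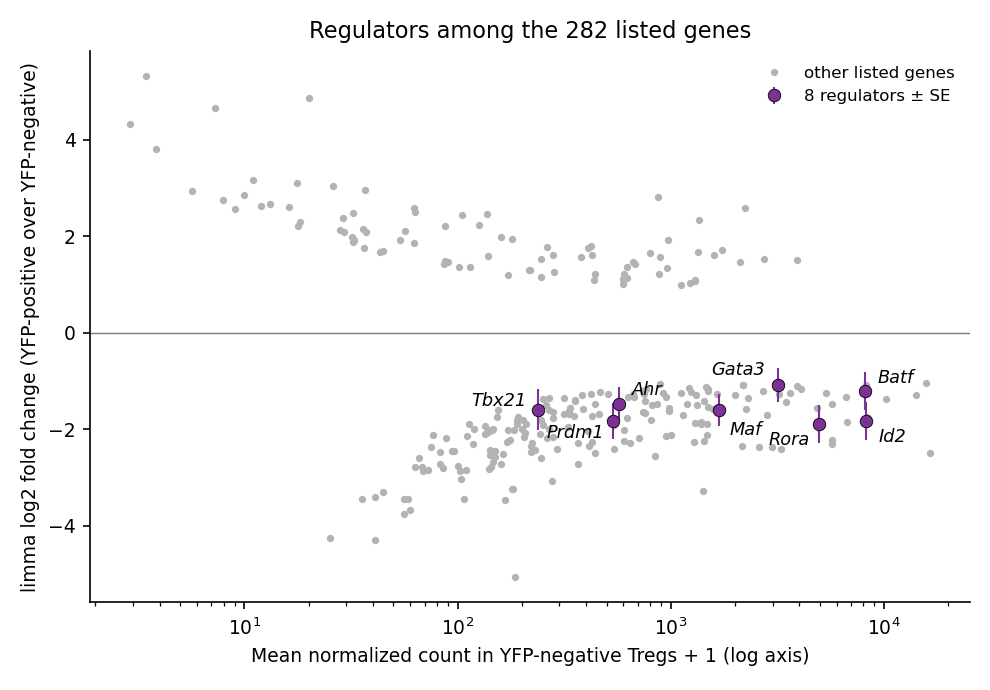
Limma log2 fold change against the mean normalized count in YFP-negative Tregs (log axis) for all 282 listed genes in grey and the 8 regulators in purple with their SE. The gap around 0 comes from the selection of the table, and the regulators lie in the upper part of the lower genes, between -1.90 and -1.09.

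The 2 mice differed in which regulators were high. Beyond counting error, Rora was higher in mouse 1 in both populations, and Batf, Maf and Ahr were higher in mouse 2 in both. Gata3, Id2 and Tbx21 were higher in mouse 1 among YFP-negative libraries, and their YFP-positive ratios of mouse 1 to mouse 2 were 1.02, 1.00 and 0.981, with 95% exact binomial counting intervals that include 1. Prdm1 was higher in mouse 2 among YFP-positive libraries, and its YFP-negative ratio was 0.920 (0.817 to 1.04). The same mouse was thus the higher one in both populations, beyond counting error, for 4 of 8 regulators. Counting intervals were not computed for the other listed genes. By direction alone, the same mouse was higher in both populations for 7 of 8 regulators and for 58.9% of the 282 listed genes. That difference was not tested. For Rora the ratio of mouse 1 to mouse 2 was 2.73 (counting interval 2.62 to 2.85) in YFP-negative and 1.83 (1.68 to 1.99) in YFP-positive libraries. Among the 282 genes, 9 differed more between the YFP-negative mice than Rora did, and the median difference was 1.28-fold. Of the 16 intervals, 2 per regulator, 12 did not include 1, and those that did were the YFP-positive intervals of Id2, Gata3 and Tbx21 and the YFP-negative interval of Prdm1. These intervals cover counting error only and rest on reads inferred from the values, between 72 and 9963 per regulator and library.

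**Figure D5:**
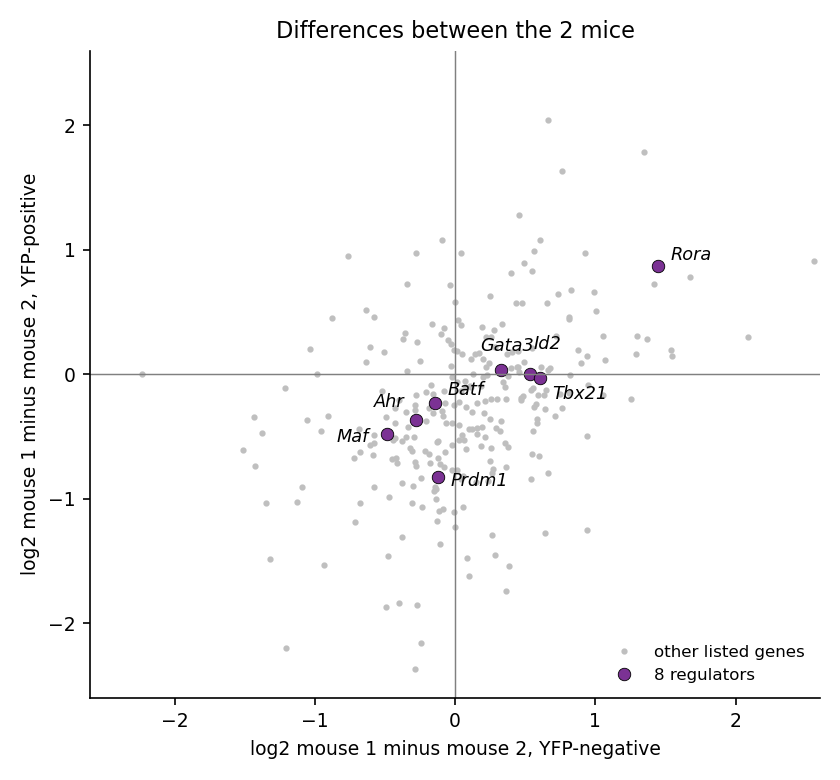
Log2 difference between mouse 1 and mouse 2 in YFP-negative (horizontal) and YFP-positive (vertical) libraries for all listed genes in grey and the 8 regulators in purple. Rora lies at the upper right, at 1.45 and 0.87, and the other regulators lie within 0.83 of 0 on both axes.

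Genes with the profile most like that of a regulator were found by the Euclidean distance between centred log2 values over the 4 libraries, among 241 protein-coding genes of the table. Tox2 was nearest to Tbx21 (distance 0.115), Wisp1 to Rora (0.148) and Hacd3 to Gata3 (0.107). March3, whose symbol had turned into a date in the deposited file and was read from its identifier, was nearest to Batf (0.0759). Pon3 was nearest to Ahr (0.0987), Cysltr2 to Maf (0.196) and Il9r to Id2 (0.213). Nearest to the mean profile of the 8 was Pdcd1, which encodes PD-1 (0.0665), followed by St14 (0.0743) and Bcl2a1d (0.163). Wisp1 was higher in mouse 1 in both populations, which follows from its choice by closeness to Rora over the same 4 libraries. It was counted at 391 and 146 in the YFP-negative and 75.9 and 45.6 in the YFP-positive libraries of mice 1 and 2. Pdcd1 was counted at 1532 and 1756 in the YFP-positive and at 5339 and 4351 in the YFP-negative libraries.

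Of 14 resting Treg regulators, 1 was listed and rose. This was Bach2, a repressor of effector programmes, at 758 and 601 in the YFP-positive against 249 and 319 in the YFP-negative libraries. Its limma log2 fold change was 1.26 ± 0.35 (SE). Genes outside the table have no value here, so a missing name does not show that a gene was alike in both groups.

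Jun and Gata1, from the list of partner proteins and relatives of the 8, rose. Jun, whose protein pairs with BATF, rose 2.88-fold to a mean of 7919 ± 1436 (SD, n = 2), a limma log2 fold change of 1.52 ± 0.39 (SE), while Batf fell. Gata1, the erythroid relative of Gata3, rose 5.53-fold, a limma log2 fold change of 2.45 ± 0.36 (SE). Genes that the table itself assigned to a transcription factor family included Arnt2, Pbx3, Prox1, Runx2 and Tox2, which were lower, and Cers6, which was higher.

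Of 26 genes known as targets of the 8 regulators, 6 were listed and 6 fell, beside 69.5% of the listed genes. The target list was chosen with earlier results of these data known, so these counts are not a result about the targets. Of 6 targets of T-bet, Ifng (limma log2 fold change -2.41 ± 0.38, SE), Cxcr3 (-2.23 ± 0.37) and Ccl5 (-1.89 ± 0.34) fell. The value of Tbx21 itself was -1.60 ± 0.43. Il1rl1, the interleukin-33 receptor gene and a target of GATA3, fell by 2.24 ± 0.37 on the limma log2 scale. Gpr15, a homing receptor gene and a target of the aryl hydrocarbon receptor, fell by 2.13 ± 0.35 on that scale. Klrg1, placed on the list as dependent on BATF, fell by 2.41 ± 0.34 on that scale. None of the targets listed for c-Maf, Blimp-1 or ROR-alpha was in the table. The differences between a regulator and its targets were not tested.

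Markers of other cells moved in the same libraries. Of 8 B cell markers, Igkc alone was listed, at 249 and 280 in the YFP-positive against 1503 and 1072 in the YFP-negative libraries. Of 8 natural killer cell markers, Gzma alone was listed, at 7.28 and 37.1 against 109 and 253. From the list for naive conventional CD4 T cells, 2 genes that resting Tregs also express, Igfbp4 and Bcl2, were higher in the YFP-positive libraries and passed the test. Igfbp4 was at 5011 and 3165 against 1776 and 893, and Bcl2 at 5805 and 5029 against 1379 and 2820. Cd40lg of the same list fell, at 309 and 447 against 823 and 1067. Of 5 gamma delta T cell markers, Tcrg-C1 and Tcrg-C4 were listed and rose, with sums of 512 and 263 against 52.0 and 24.3. Of 6 erythroid and platelet markers, Gata1 rose and Car2 fell, with sums of 735 and 916 against 329 and 436. Tcrg-C4 was at 0 in YFP-negative mouse 2, and no listed marker was at 0 in both libraries of a group. No marker of CD8 T cells, myeloid cells or innate lymphoid cells was in the table. The part of these in the falls of the regulators was not tested.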

How the data were processed

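RNA-seq libraries of sorted Tregs, 2 YFP-positive and 2 YFP-negative, were compared. The submitters' processing notes name the mm10 build, featureCounts 1.5.0-p3, HISAT2 2.0.5, DESeq2 1.16.1 and StringTie 1.3.3b, and the series' design text names DEGSeq 1.16.1. The deposited signal values are gene read counts that the authors scaled by library size factors. The authors' deposited table also gives log2 fold changes and p-values with adjusted p-values. It lists 282 selected genes, each past 1 in absolute log2 fold change and below 0.05 in adjusted p by the authors' values. The values were whole multiples of a step within 0.001 reads in 100% of cases, from which reads and size factors of 0.943 to 1.11 were inferred. The listed genes held 196337 to 329350 such reads per library, which is not the libraries' depth.

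Here limma 3.58.1 in R 4.3.3 was fitted to log2(value + 1) of all 282 genes with a variance trend, no filter and Benjamini-Hochberg adjustment, and was tested on simulated data. Fold changes on this scale understate those of low genes. Equal mouse numbers were taken to mark a shared source. Same-numbered libraries deviated together from their group means (Pearson's r = 0.395 and Spearman's rho = 0.411 across 282 genes), and a fit with the mouse as a block was an alternative. The libraries of a group carry different mouse numbers, but whether a number is a single animal or a pool is not stated. The p-values thus concern these libraries, and the main fit did not use the mouse number. Limma draws each gene's variance toward a trend shared by the 282 selected genes. The SEs and p-values therefore do not measure a regulator's own spread alone. Rora, whose mice differed by 0.87 (YFP-positive) and 1.45 (YFP-negative) on the log2 scale, had an SE of 0.388. Batf, at -0.23 and -0.14, had an SE of 0.397. Coordinates and lengths were checked against GENCODE M21 and promoters taken from RefSeq (GRCm38.p6). Transcripts were compared with BLAST 2.17.0, which matched the regulators to no gene beyond overlapping ones named in the text. All 8 regulators are named, with their nearest genes by profile, the listed members of the gene lists and the other genes with a deposited factor family. A few genes that these rules name, and counts that need them, are not reported here. The members and lists were chosen with earlier results of these data known.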

Additional observations from a re-analysis of the deposited data

How the results depend on the processing

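By limma, 8 of 8 regulators passed with a pseudocount of 0.1, with a mean of at least 50 normalized counts, without a variance trend and with a replicate block for the mouse, which changed no call of a regulator (Batf then had adjusted p = 0.0387). With the same limma p adjusted over 14239 tests, 6 of 8 passed, without Batf (log2 fold change -1.22) and Gata3 (-1.09). Their limma p were 0.0034 and 0.00295, where the authors' deposited p were 1.89e-05 and 0.000184. The authors' deposited adjusted p, which imply the same number of tests, were 0.00229 for Batf and 0.0136 for Gata3. Both are below 0.05, as for every listed gene by the selection of the table. When 1 library was left out, 7 or 8 of the 8 passed, the lone library being assumed to vary like the other group. The log2 fold change then ranged from -2.62 to -1.17 for Rora and from -1.90 to -1.30 for Tbx21, and the Rora minus Gata3 difference from -1.37 to -0.25. Of the 88 values of the regulators under these alternatives and in either mouse alone, 0 reversed and 4 no longer passed. The absence of reversals was fixed by groups that do not overlap, and closeness in either mouse alone by the estimate being the mean of both. The values in either mouse alone carry no p-value, so they could not fail to pass. Over all 282 genes, 236 to 282 passed, and 256 of 256 with the filter on low values. A count model on the inferred reads was not run, because too few low values were listed to rely on them. Few reads limit Tbx21.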
